A study of Mus musculus with 8 samples.

Results

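The loci described here are those of 7 mouse genes of the leukaemia inhibitory factor (LIF) and STAT3 pathway, out of 21938 protein-coding genes in the annotation: Lif, Lifr, Il6st, Jak1, Stat3, Socs3 and Pim1. A locus was the gene body with 50 kb to each side in mm10 (GRCm38), and its members were all ATAC-seq peaks that overlapped it by at least 1 bp. ATAC-seq marks open chromatin, because a transposase inserts sequencing adapters where DNA is accessible. The 7 loci spanned 1045 kb and held 70 peaks in mouse embryonic fibroblasts (MEFs), 31 and 39 peaks at day 5 and day 10 of reprogramming, and 42 peaks in embryonic stem cells (ESCs).

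The study had 8 libraries in 4 groups, each with 2 libraries that were deposited as 1 peak list. MEFs of the OG2 strain (C57BL/6J-OG2), derived from midgestation embryos with an Oct4-GFP transgene, were uninfected. The day 5 and day 10 cells were such MEFs infected with retroviruses for Oct4, Sox2, Klf4 and Myc (OSKM) together with a FLAG control vector, and kept in ESC medium with vitamin C. ESCs were of strain C57Bl6J in the first library and C57BL/6J-OG2 in the second, and all groups were wildtype for the knockout that the study made elsewhere. LIF was part of the medium of the infected cells and the ESCs and was not named for the MEF medium, so an effect of LIF in the medium and an effect of cell type or OSKM cannot be told apart here. The labels place ESCs on feeder MEFs in serum medium, whereas the methods place the ESCs used for ATAC-seq in 2i/L medium on gelatin. Infected cultures are mixtures of cells at different stages, and a peak list does not give the share of cells in which a site was open.

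LIF is a cytokine of the interleukin 6 family. It binds LIFR, which pairs with gp130 (encoded by Il6st), and the pair activates JAK1, which phosphorylates STAT3. STAT3 then enters the nucleus and binds DNA, with SOCS3, a feedback inhibitor of the receptor complex, and PIM1, a serine/threonine kinase, among the products of its classical targets. In mouse ESCs this pathway sustains self-renewal and is the reason LIF is added to culture medium.

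The lists contained 56514, 36219, 35226 and 48486 peaks in the order MEFs, day 5, day 10 and ESCs, which is the order of every set of 4 values below. They give no read counts, so the depth of the libraries is unknown and a missing peak means only that no peak was listed. With 1 list per group no count below has a replicate error and no test between groups was possible. The 95% Wilson intervals cover counting error only. The MEF and ESC lists matched their labels at marker genes: 6 fibroblast genes had 50, 27, 23 and 16 peaks and a peak over a start site in 6, 4, 2 and 1 of them, and 6 pluripotency genes had 15, 14, 16 and 55 peaks and a start-site peak in 2, 1, 1 and 5.

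STAT sites were the first sequence feature examined, because STAT3 is the transcription factor of the pathway. STAT dimers recognise palindromes of the form TTCCNGGAA. Peaks, from whichever list, were merged into 1 region when no more than 400 bp separated them. This gave 97 regions at these loci of 101701 in the series, and 7 of the 97 held this sequence. A region was MEF-specific (a peak in MEFs and none in ESCs), ESC-specific (a peak in ESCs and none in MEFs), common (a peak in both) or transient (a peak at day 5 or day 10 only), so that a region of the first 3 classes could also be open on either day. Of these 7 regions, 5 lay at Socs3, 1 at Lifr and 1 at Jak1. The stretches below show each match in capitals with up to 60 bases to each side, or 10 for Socs3 promoter, cut at the region's edge and written 5′ to 3′ on the forward strand of GRCm38. They are printed so that the Socs3 promoter match, which was under a peak in every list, can be seen beside the distal ones. The first is Socs3 promoter (chr11:117969229-117969257), the next 4 are Socs3 25.4 kb upstream (chr11:117995450-117995551), 20.3 kb upstream (chr11:117990308-117990428), 7.4 kb downstream (chr11:117962563-117962691) and 46.7 kb downstream (chr11:117923247-117923375) of its 5′-most start site, and the last are Lifr intron, 24.9 kb downstream (chr15:7115457-7115585), and Jak1 intron, 39.5 kb downstream (chr4:101225702-101225830).
Socs3 promoter: cgccccccgaTTCCTGGAActgcccggcc
Socs3 far upstream: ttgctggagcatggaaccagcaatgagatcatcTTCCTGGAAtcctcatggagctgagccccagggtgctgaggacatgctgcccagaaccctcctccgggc
Socs3 upstream: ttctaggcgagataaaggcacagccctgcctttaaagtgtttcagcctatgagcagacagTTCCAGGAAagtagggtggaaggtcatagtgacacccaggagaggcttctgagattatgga
Socs3 downstream: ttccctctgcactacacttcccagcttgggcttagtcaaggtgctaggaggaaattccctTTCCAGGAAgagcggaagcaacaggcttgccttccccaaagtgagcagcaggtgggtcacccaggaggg
Socs3 far downstream: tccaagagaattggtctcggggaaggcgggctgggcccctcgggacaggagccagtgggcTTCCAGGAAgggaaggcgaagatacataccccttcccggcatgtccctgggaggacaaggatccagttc
Lifr intron: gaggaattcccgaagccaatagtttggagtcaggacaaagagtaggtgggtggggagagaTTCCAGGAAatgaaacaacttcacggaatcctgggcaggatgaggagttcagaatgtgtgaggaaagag
Jak1 intron: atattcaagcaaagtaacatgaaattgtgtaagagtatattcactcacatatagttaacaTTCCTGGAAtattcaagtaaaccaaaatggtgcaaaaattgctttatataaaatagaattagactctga

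The promoter match of Socs3 lay 53 bp upstream of the start of the protein-coding transcript in GENCODE and 119 bp downstream of the start of the curated transcript in RefSeq, and was covered by a peak of each list. The matches 25.4 kb and 20.3 kb upstream of Socs3 were under a MEF peak only. The match 7.4 kb downstream was in a region open in all 4 lists but under its ESC peak only, and the match 46.7 kb downstream was under a day 10 peak only. That day 10 peak was among the weakest of its list, with a score above 0.690% of the peaks. The Lifr match was under an ESC peak only, and the Jak1 match under a MEF peak only. Thus 1 of the 7 matches was open in every list, and each of the others was under a peak of 1 list.

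In all, 7.22% of the regions held TTCCNGGAA (Wilson interval 3.54% to 14.2%), beside 3.01% of all regions of the series. By class, the matches were in 3 of 46 MEF-specific regions (2.81% of such regions in the series), 1 of 19 ESC-specific regions (2.72%), 2 of 23 common regions (4.74%) and 1 of 9 transient regions (1.89%). At Socs3, 5 of 16 regions held it (31.2%, interval 14.2% to 55.6%), or 3.34 matches per 10 kb of region, against 0.386 per 10 kb over the series. At Lifr and at Jak1, 1 of 19 regions held it (5.26%, 0.935% to 24.6%), and no region of Lif, Il6st, Stat3 or Pim1 did. The share over the 7 genes thus rested mainly on Socs3. The looser sequence TTCNNNGAA, which includes every strict match, was in 25 of 97 regions (25.8%, 18.1% to 35.3%) and in 24.3% of all regions. The 300-base promoter windows given by RefSeq for GRCm38, 9 windows for the 7 genes, held no strict match, and 1.15% of all 32851 windows did. The Socs3 window was set on the RefSeq start and does not reach the match. A match describes the sequence and does not show that STAT3 was bound.

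**Figure D1:**
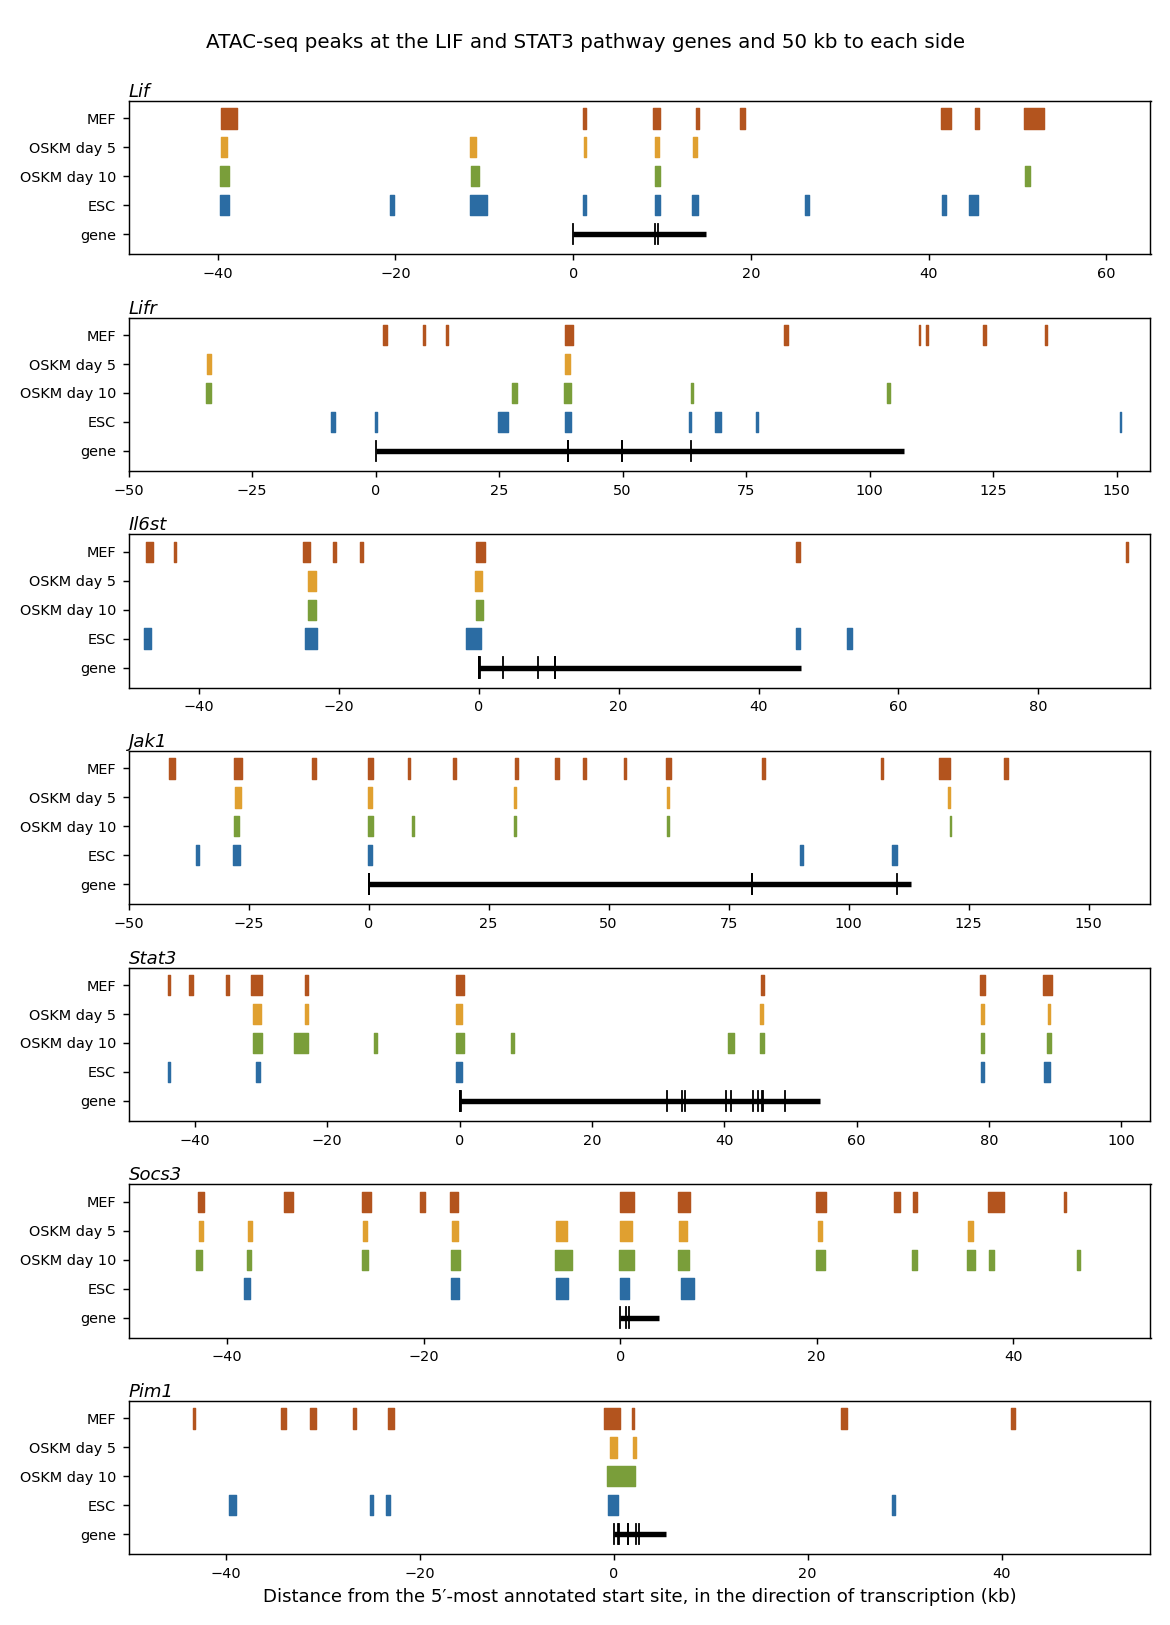
Peaks of each list (coloured bars, to scale) at the 7 genes, with distance in kb from the 5′-most annotated start site on the x axis, rows for MEFs, OSKM day 5, OSKM day 10 and ESCs, and the gene body with its start sites (ticks) at the bottom of each panel. Bars line up over a start site of every gene in all 4 rows, Socs3 has 12, 9, 12 and 5 bars, and most MEF bars at Jak1 have no bar below them.

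The number of peaks fell from MEFs to day 5 at each of the 7 genes. Across all protein-coding genes 63.2% had fewer peaks at day 5 than in MEFs, and the day 5 list was 64.1% as long as the MEF list. The 7 loci lost more than that in proportion, with 44.3% of the MEF number at day 5, 55.7% at day 10 and 60% in ESCs, where the day 10 list had 62.3% and the ESC list 85.8% of the MEF list's length. With all lists cut to the same length by score, the loci held 48, 30, 39 and 28 peaks. The median of the 7 genes was 9, 5, 5 and 5 peaks, and that of all genes 5, 3, 3 and 4. Per 100 kb of locus the medians were 6.96, 2.35, 2.82 and 3.87 peaks for the 7 genes and 3.46, 2.10, 2.34 and 3.12 peaks for all genes, so the 7 genes stood above the median gene most clearly in MEFs. Peaks covered 5.20%, 1.94%, 3.27% and 3.35% of the loci.

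More peaks were listed in MEFs than in ESCs at 6 of the 7 genes (42.2% of all genes), and more in ESCs at 1, Lif (35.6% of all genes). The loss between the 2 cell types was widest at Jak1, with 10 fewer peaks in ESCs, a decrease exceeded by 0.702% of all genes, and at Socs3, with 7 fewer, exceeded by 1.77%. More peaks were listed at day 10 than at day 5 at 4 genes (33.0% of all genes), fewer at 2, and the same number at 1. The choice of 50 kb mattered for these directions. With 10 kb to each side, only 3 genes had more peaks in MEFs than in ESCs, and Il6st and Socs3 each had 1 more in ESCs.

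**Figure D2:**
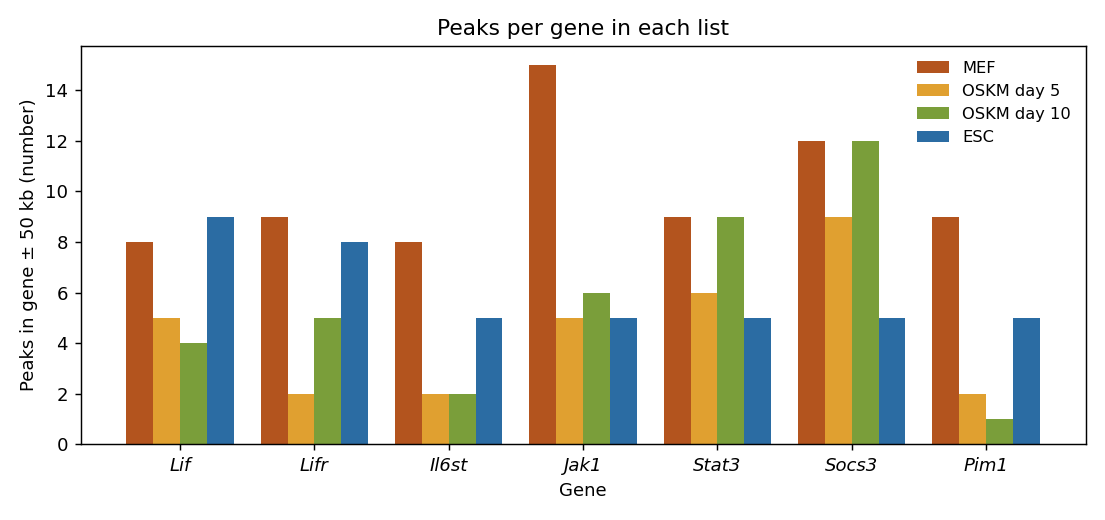
Number of peaks overlapping each gene or 50 kb to each side (y axis) in the MEF, OSKM day 5, OSKM day 10 and ESC lists (bars, 1 list per group and therefore no error bars). Jak1 falls from 15 peaks in MEFs to 5 at day 5, while Socs3 returns to 12 at day 10.

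Lif, which encodes the ligand, is at chr11:4257557-4272514 on the plus strand. MEFs had 8 peaks at the locus, day 5 had 5, day 10 had 4 and ESCs had 9. It was the only member with more peaks in ESCs, although with 100 kb to each side it had 2 fewer there. Of its 11 regions, 6 were common, 3 ESC-specific and 2 MEF-specific. The 5′-most start, of a protein-coding transcript, was in no peak of any list, whereas a peak at chr11:4266587-4267339 covered the 2 starts 9239 and 9538 bp downstream, the latter also of a protein-coding transcript, in all 4 lists. The fold enrichment of that peak over background, a deposited value, was 2.90, 3.25, 3.64 and 2.99. It was a middling peak of its lists, with a lower score for 49.9%, 38.6%, 57.3% and 38% of the peaks of each list.

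The widest ESC-specific region of Lif, 1904 bp at chr11:4245908-4247811, lay 10.7 kb upstream of the 5′-most start and outside any annotated gene. No MEF peak was listed there, but it had a peak of 679 bp at day 5 (fold enrichment 4.86), of 1008 bp at day 10 (4.10) and of 1900 bp in ESCs (3.39). The other ESC-specific regions, 20.4 kb upstream and overlapping Osm, the neighbouring gene for the related cytokine oncostatin M, and 26.3 kb downstream, were in neither day's list. The widest MEF-specific region (2290 bp), 51.9 kb downstream, had a peak of 501 bp at day 10, and the widest common region (1930 bp), 38.8 kb upstream, lay over a start site of Castor1. Of the 6 common regions, 4 were in the day 5 list and 2 in the day 10 list, beside 76.0% and 79.9% of common regions in the series.

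Lifr, which encodes the LIF receptor, is at chr15:7090614-7197489 on the plus strand. MEFs had 9 peaks at the locus, day 5 had 2, day 10 had 5 and ESCs had 8. Its direction was not stable, since it had 3 more peaks in ESCs than in MEFs when all lists were cut to equal length by score. The totals were close, but the sites were not the same: of 19 regions, 8 were MEF-specific, 7 ESC-specific, 3 transient and only 1 common. On either day, 0 of the 8 MEF-specific regions were listed, and of the 7 ESC-specific regions 1 was listed at day 10 and none at day 5. Across the series the day 5 and day 10 lists covered 14.2% and 14.8% of the MEF-specific class and 10.7% and 12.6% of the ESC-specific class, so counts this small are near those shares.

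The single common region of Lifr, chr15:7128685-7130581, covered 3 start sites, 38945 to 38958 bp downstream of the 5′-most start, and its fold enrichment was 3.34, 3.14, 2.92 and 3.56. Within each list, 72.2%, 25.9%, 54.5% and 68.6% of peaks scored lower. The 5′-most start was under a peak in ESCs only (chr15:7090386-7090774, fold enrichment 3.72, above 54.8% of ESC peaks). The nearest MEF peak to it was 1555 bp away, and the nearest peaks at day 5 and day 10 were 33343 and 27666 bp away. A further start, 63739 bp downstream, was also under a peak in ESCs only, and the day 10 peak of the same region (chr15:7154104-7154934) was 102 bp from it. That ESC peak was weak, above 10.7% of ESC peaks, and with lists of equal length it was no longer listed. It did not overlap the day 10 peak of the region.

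The 228 bases upstream of the 5′-most start (here the ESC-only start) and of the first start shared by all lists are shown. They compare 2 of the 7 Lifr starts (forward strand, GRCm38, chr15:7090386-7090613 and chr15:7129331-7129558, chosen after the values were seen). Capitals mark TTCNNNGAA in the first and the KLF-type sequence CCNCNCCC, read on either strand, in the second.
Lifr ESC-only start: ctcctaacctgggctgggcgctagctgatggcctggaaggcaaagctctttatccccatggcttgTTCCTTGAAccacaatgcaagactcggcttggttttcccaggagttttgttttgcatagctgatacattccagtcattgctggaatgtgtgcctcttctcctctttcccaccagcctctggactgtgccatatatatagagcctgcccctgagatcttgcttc
Lifr shared start: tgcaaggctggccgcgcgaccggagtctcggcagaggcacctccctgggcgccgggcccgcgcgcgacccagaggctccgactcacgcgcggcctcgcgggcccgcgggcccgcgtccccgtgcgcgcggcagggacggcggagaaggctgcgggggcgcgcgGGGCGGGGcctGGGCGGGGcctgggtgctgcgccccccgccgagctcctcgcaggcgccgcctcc

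The upstream sequence of the shared start was 83.3% G and C, with 2 KLF-type matches and no TTCNNNGAA. The upstream sequence of the ESC-only start was 50.9% G and C, with 1 TTCNNNGAA and no KLF-type match. Neither held the octamer ATGCAAAT or the SOX-type CCNTTGT.

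Among the other regions of Lifr, the widest ESC-specific one was the intronic region of 2022 bp at chr15:7115275-7117296, 25.7 kb downstream of the 5′-most start. It carried the strict STAT match printed above, had a fold enrichment of 3.31 above 75.8% of ESC peaks, and was in no other list. The widest MEF-specific region (917 bp) lay 83.1 kb downstream and overlapped an exon. The widest transient region, 946 bp at 33.8 kb upstream, had peaks at day 5 (fold enrichment 5.00) and day 10 (3.25) and in neither end cell type.

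Il6st, which encodes gp130, the signalling chain shared by the cytokines of the family, is at chr13:112464070-112510086 on the plus strand. MEFs had 8 peaks at the locus, day 5 had 2, day 10 had 2 and ESCs had 5. The 2 peaks of each day were in its 2 widest common regions, over the start sites and 24.1 kb upstream. The start-site region, chr13:112462193-112464991, covered 4 of its start sites in all 4 lists, with fold enrichments of 4.51, 4.96, 4.49 and 3.25. It scored above 96.9% of MEF peaks, 92.0% of day 5 peaks and 95.8% of day 10 peaks but above 69.4% of ESC peaks, where the peak was wider (2239 bp against 1350 bp in MEFs). The region 24.1 kb upstream, 1942 bp long, had a peak above 27.7%, 76.1%, 79.8% and 86.3% of its list. With lists of equal length its MEF peak was no longer listed. None of the 4 MEF-specific regions (the widest 456 bp, 16.8 kb upstream) and not the 1 ESC-specific region (615 bp, 53.0 kb downstream) had a peak on either day, beside 81.1% and 84.9% of such regions in the series that had none.

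Jak1, which encodes the receptor-bound tyrosine kinase, is at chr4:101152367-101265282 on the minus strand. MEFs had 15 peaks at the locus, the most of the 7 genes, day 5 had 5, day 10 had 6 and ESCs had 5. Of its 19 regions, 13 were MEF-specific, and 9 of those lay wholly in introns of Jak1. At day 5 and at day 10, 3 of the 13 had a peak, the same ones on both days. They were the intronic regions 30.7 kb and 62.5 kb downstream of the 5′-most start and the widest MEF-specific region of all 7 loci (2509 bp), 120.0 kb downstream, which overlapped Raver2. Each was narrower on both days: the last measured 2433 bp in MEFs, 487 bp at day 5 and 210 bp at day 10.

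The start region of Jak1, chr4:101264406-101265528, covered 5 start sites and was one of its 2 common regions. Its fold enrichment was 5.59, 4.96, 5.10 and 4.68, and it scored above 98.5%, 91.6%, 97.7% and 92.8% of the peaks of each list, the highest rank of the 7 genes in MEFs, at day 10 and in ESCs. The wider common region (1873 bp), 27.3 kb upstream, was also in all 4 lists. The 3 ESC-specific regions (the widest 915 bp, in an intron 109.6 kb downstream) were in neither day's list, and the 1 transient region (400 bp, intronic) was listed at day 10. On neither day did 10 of its 13 MEF-specific regions have a peak, as was the case for 81.1% of MEF-specific regions in the series.

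Stat3, which encodes the transcription factor, is at chr11:100885098-100939540 on the minus strand. MEFs had 9 peaks at the locus, day 5 had 6, day 10 had 9 and ESCs had 5. No region was ESC-specific: 5 of 12 were common, 4 MEF-specific and 3 transient. The start region, chr11:100938853-100940094, covered 4 start sites in all lists, with fold enrichments of 4.45, 4.58, 3.95 and 4.48 and ranks above 96.2%, 87.6%, 95.1% and 89.6% of peaks. Of the other common regions, 3 lay over start sites of neighbouring genes, Cavin1, Stat5a and Stat5b, and were likewise in all 4 lists, so part of the count at Stat3 belongs to promoters of its neighbours.

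Within the gene body, the MEF-specific region chr11:100893544-100894117 covered 2 inner starts of retained-intron transcripts, 45738 and 45797 bp downstream, in MEFs (fold enrichment 3.05), at day 5 (3.80) and at day 10 (3.11), and had no ESC peak. The region chr11:100898109-100898987, 41.0 kb downstream over the start of a further retained-intron transcript, was listed at day 10 only (3.25), as were the other 2 transient regions. The widest MEF-specific region, 24.0 kb upstream and overlapping Cavin1, spanned 436 bp in MEFs, 445 bp at day 5 and 2168 bp at day 10.

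Socs3, which encodes the feedback inhibitor, is at chr11:117966079-117970047 on the minus strand. MEFs had 12 peaks at the locus, day 5 had 9, day 10 had 12 and ESCs had 5. On each of the 2 days this was the most of the 7 genes. Per 100 kb this was 11.5, 8.66, 11.5 and 4.81 peaks, more than in 99.7%, 99.5%, 99.9% and 73.7% of all genes. The locus also contains Pgs1, whose start lies in a common region 16.8 kb upstream of the 5′-most Socs3 start. That region and all regions farther upstream overlapped Pgs1, among them those with the STAT matches 25.4 kb and 20.3 kb upstream. Part of the count at Socs3 thus lies in a neighbouring gene. The start region of Socs3, chr11:117968591-117970141, had fold enrichments of 4.06, 3.61, 3.18 and 3.30 and ranked above 95.9%, 86.9%, 94.5% and 62.9% of peaks. It covered 2 start sites, including that of the protein-coding transcript, in all lists. The 5′-most start was covered in MEFs and at day 10 only, as the day 5 peak ended 6 bp and the ESC peak 9 bp short of it, which is a difference of peak borders and not of sites.

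At Socs3, 3 of the 9 MEF-specific regions were listed at day 5 and 5 of them at day 10, and both ESC-specific regions were listed on both days. The series shares in those lists were 14.2% and 14.8% for the MEF-specific class and 10.7% and 12.6% for the ESC-specific class. The wider ESC-specific region, chr11:117974973-117976634, lay 5.8 kb upstream of the gene. It had no MEF peak and fold enrichments of 3.33 and 3.08 on the 2 days and 3.46 in ESCs, above 57.6%, 80.6% and 73.0% of peaks. The other, 37.9 kb upstream in Pgs1 (chr11:118007509-118008321), had weak peaks in the same lists, above 5.47%, 9.56% and 10.7% of peaks. The widest common region (1609 bp), 6.7 kb downstream of the 5′-most start and beyond the gene's end, was in every list. The widest MEF-specific region (1701 bp), 38.2 kb downstream, was also listed at day 10, and the wider transient region (794 bp), 35.7 kb downstream, on both days.

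Pim1, which encodes a serine/threonine kinase, is at chr17:29490753-29496112 on the plus strand. MEFs had 9 peaks at the locus, day 5 had 2, day 10 had 1 and ESCs had 5. The start region, chr17:29489782-29493012, was the widest region of the 7 loci at 3231 bp and also covered a start of the overlapping gene Gm26885. Its peaks covered the 5′-most start in all 4 lists, with fold enrichments of 2.74, 2.81, 2.65 and 3.12 and ranks above 81.6%, 40.1%, 70.3% and 69.4% of peaks. In MEFs and at day 5 the region consisted of 2 separate intervals, and at day 10 of 1 interval of 2875 bp. The count thus fell while the peaks covered 1.01 kb at day 5 and 2.88 kb at day 10. The 2 MEF intervals had the same score (109) and fold enrichment (2.74), and each was counted as a peak. Outside the start region nothing was listed on either day: none of the 6 MEF-specific regions (the widest 670 bp, 23.8 kb downstream), the 3 ESC-specific regions or the other common region had a peak. No peak on either day was also the state of 81.1% of MEF-specific regions in the series, and of 84.9% in the ESC-specific class. The widest ESC-specific region (725 bp), 39.3 kb upstream in Gm26885, was among the stronger ESC peaks, above 88.7% of them.

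Considered together, all 7 genes had a peak over at least 1 start site in each of the 4 lists. Across all protein-coding genes the shares were 60.0%, 52.1%, 56.0% and 55.8%. The 5′-most start was covered at 5, 4, 5 and 5 of the 7 genes, beside 52.6%, 44.1%, 48.5% and 47.0% of all genes. The lists therefore did not differ in the presence of a start-site peak at these genes, but in which of the starts were covered. Part of that was a matter of peak borders, since the 5′-most Socs3 start was missed by 6 bp at day 5 and 9 bp in ESCs. At the 5′-most start the lists otherwise differed only at Lifr, where it was covered in ESCs alone. Il6st, Jak1, Stat3 and Socs3 ranked above at least 86.9% of the peaks in the MEF list and in those of both days. Lif and Lifr ranked below the other 5 genes in every list, with the exception that Lifr ranked above Socs3 in ESCs. The peak of each of the 7 genes had a lower rank at day 5 than in MEFs, as did 83.6% of the 10257 genes with a start-site peak in every list, for which the median rank was above 87.4%, 72.9%, 82.6% and 77.6% of peaks. With lists cut to equal length, an alternative chosen after the values were seen, 6 of the 7 genes ranked lower at day 5. The exception was Lif (19.6% in MEFs and 36.9% at day 5). The share of all genes was not computed for lists of equal length, so this count has no background. Scores and ranks both depend on depth and on the length of a list, so a rank places a peak within its own list and a shift between lists is not a measured change at the site.

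**Figure D3:**
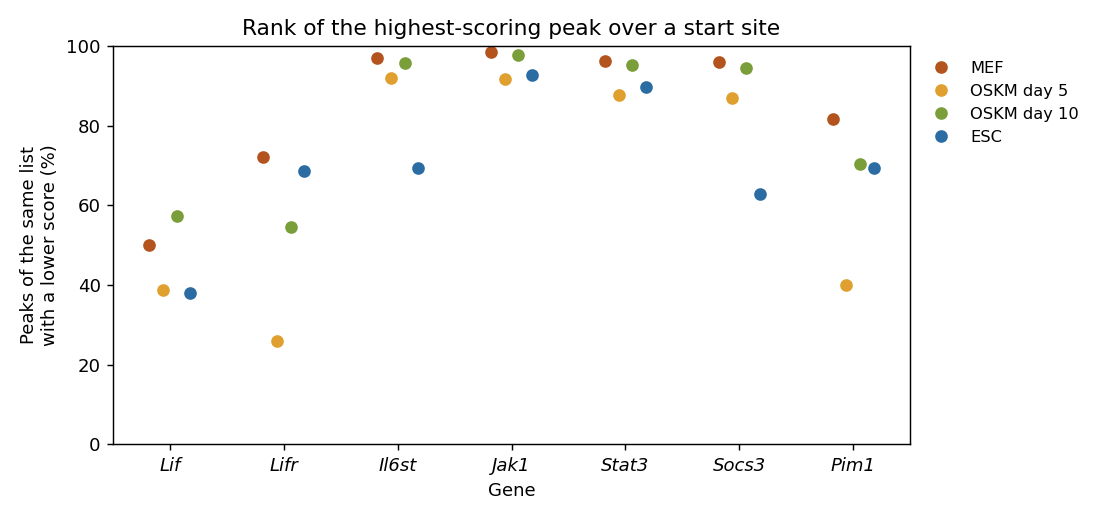
Share of the peaks of the same list with a lower score (y axis, %) for the highest-scoring peak over a start site of each gene, with 1 point per list. Jak1 lies between 91.6% and 98.5% in all lists, and the ESC points of Il6st and Socs3 lie at 69.4% and 62.9%. Lists differ in length, so points of different lists are not a measured change.

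Classed over the 4 lists, 46 of the 97 regions were MEF-specific (47.4%, interval 37.8% to 57.3%), against 36.4% of all regions. Another 19 regions were ESC-specific (19.6%, 12.9% to 28.6%, against 28.4%), 23 were common (23.7%, 16.4% to 33.1%, against 19.1%) and 9 were transient (9.28%, 4.96% to 16.7%, against 16.1%). The ESC-specific number was 12 with only peaks of a q-value of 0.01 or lower, and 12 with lists of equal length. Neighbouring regions are not independent, so these intervals are if anything too narrow. The mixture differed among the genes: 13 of 19 regions were MEF-specific at Jak1 and 2 of 11 at Lif, and ESC-specific regions ranged from 0 of 12 at Stat3 to 7 of 19 at Lifr. Of the 97 regions, 11 lay over a start site of their gene, 7 over a start site of another gene only, 25 elsewhere inside their gene and 54 outside it. Common regions accounted for 7 of the 11 and all 7 of the second kind, whereas 32 of the 46 regions specific to MEFs and 12 of the 19 specific to ESCs lay outside the gene and off any start site.

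**Figure D4:**
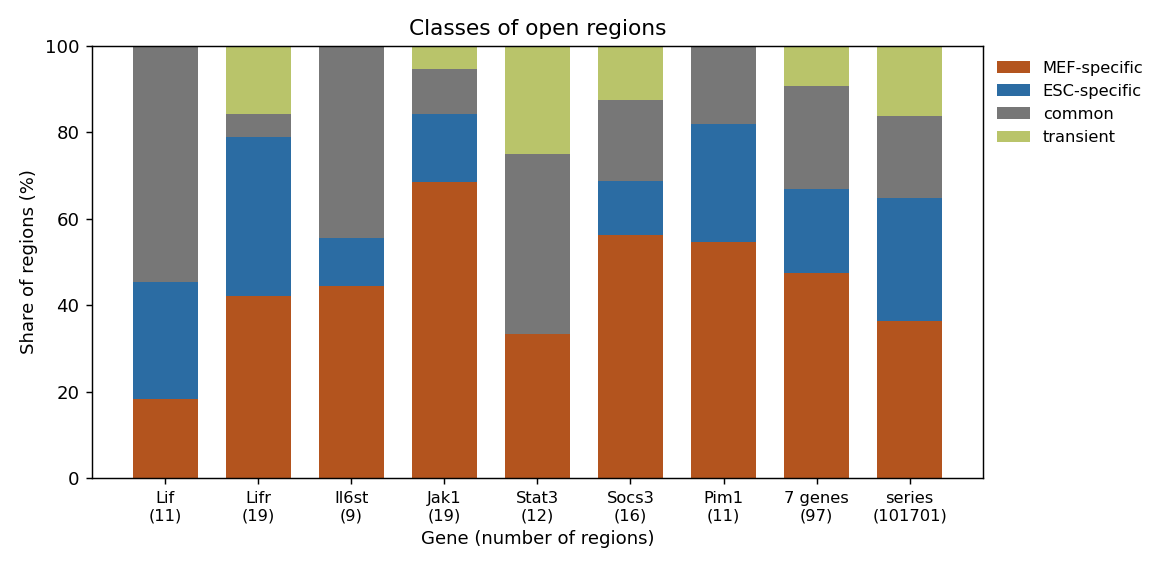
Share of regions (y axis, %) that were MEF-specific, ESC-specific, common or transient at each gene, at the 7 genes together and in the whole series, with the number of regions in brackets. The MEF-specific share is 47.4% at the 7 genes and 36.4% in the series, and Stat3 has no ESC-specific region.

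The question addressed by the 2 reprogramming days is how far sites of the starting cells had closed and sites of ESCs had opened. Of the 46 MEF-specific regions, the day 5 list held 8 (17.4%, interval 9.09% to 30.7%) and the day 10 list 11 (23.9%, 13.9% to 37.9%), beside 14.2% and 14.8% of such regions in the series. All 8 of day 5 were still listed at day 10. They were at Jak1 (3), Socs3 (3) and Stat3 (2), and Socs3 (2) and Lif (1) supplied the others at day 10. Of the 19 ESC-specific regions, the day 5 list held 3 (15.8%, 5.52% to 37.6%) and the day 10 list 4 (21.1%, 8.51% to 43.3%), beside 10.7% and 12.6%. Each of these 4 intervals included the share of the series. The ESC-specific region at Lifr that was listed at day 10 joined an ESC peak and a day 10 peak that did not overlap. Its ESC site was therefore not itself under a day 10 peak.

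Common regions were listed at 17 of 23 on day 5 (73.9%, 53.5% to 87.5%) and 15 of 23 on day 10 (65.2%, 44.9% to 81.2%), beside 76.0% and 79.9%, which both intervals included. The transient regions departed furthest from the series. All 9 had a peak at day 10, where the series had 63.8%, and only 2 had one at day 5 (22.2%, 6.32% to 54.7%), where the series had 78.7%. These shares are not independent, because a transient region without a day 5 peak has a day 10 peak by definition. The 9 regions were at Lifr (3), Stat3 (3), Socs3 (2) and Jak1 (1), and 7 were listed at day 10 alone. Several of these 7 were weak day 10 peaks. At Socs3 and Jak1 they scored above 0.690% and 4.17% of the day 10 list. Ranks at Stat3 were above 15.4%, 42.5% and 54.5%, and at Lifr above 17.2% and 26.7%.

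**Figure D5:**
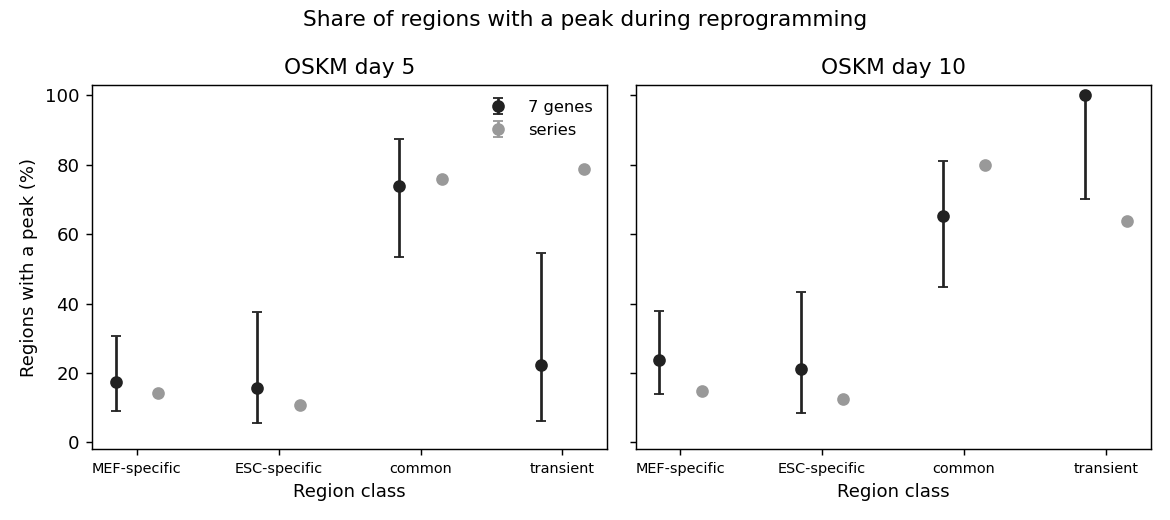
Share of the regions of each class with a peak (y axis, %) at day 5 (left) and day 10 (right), for the 7 genes (black) and the whole series (grey), with 95% Wilson intervals. Transient regions differ most, with 22.2% against 78.7% at day 5 and 100% against 63.8% at day 10. The transient points of the 2 days are not independent, because such a region has a peak on at least 1 day by definition. The black transient points rest on 9 regions, several with a weak day 10 peak.

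The ESC-specific regions that were open by day 5 were thus 3, 1 at Lif and 2 at Socs3. For the wider one of each gene, the 200 bases with the most matches to octamer, SOX, KLF and strict STAT sequences are shown (leftmost on ties, forward strand, GRCm38, chosen after the values were seen), with CCNCNCCC and CCNTTGT matches on either strand in capitals. The stretch near Lif is chr11:4247514-4247713 and that near Socs3 chr11:117975883-117976082. The Lif stretch was under the ESC peak only, since the day 5 peak ended at 4246586 and the day 10 peak at 4247013. It is therefore not in the part of the region that was listed on either day. The Socs3 stretch was under the peaks of both days and of ESCs.
Lif upstream region: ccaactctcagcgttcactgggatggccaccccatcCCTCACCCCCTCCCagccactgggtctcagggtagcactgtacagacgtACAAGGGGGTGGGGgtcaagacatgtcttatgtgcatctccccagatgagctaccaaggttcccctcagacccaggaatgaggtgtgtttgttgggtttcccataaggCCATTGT
Socs3 upstream region: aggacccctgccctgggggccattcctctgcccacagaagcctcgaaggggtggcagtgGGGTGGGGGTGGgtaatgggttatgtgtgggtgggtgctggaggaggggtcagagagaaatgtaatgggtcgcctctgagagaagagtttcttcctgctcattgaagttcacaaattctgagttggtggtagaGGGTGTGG

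The Lif stretch held 4 KLF-type and 2 SOX-type matches, some of them overlapping, and the Socs3 stretch 3 KLF-type matches. Over its whole length the Lif region had 9 KLF-type and 2 SOX-type matches and the Socs3 region 5 KLF-type, 3 SOX-type and 1 octamer match. KLF4, SOX2 and OCT4 are among the factors the cells were given, and these short sequences are common in the genome.

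Over all 97 regions, the KLF-type sequence was in 14 of 19 ESC-specific regions (73.7%, 51.2% to 88.2%, against 46.8% of all ESC-specific regions). It was in 21 of 23 common ones (91.3%, 73.2% to 97.6%, against 85.8%). The AP-1 sequence TGANTCA, bound by factors of the JUN and FOS families, was in 34 of 46 MEF-specific regions (73.9%, 59.7% to 84.4%, against 57.9%). It was in 4 of 19 ESC-specific regions (21.1%, 8.51% to 43.3%, against 17.6%). The octamer was in 0 of 46 MEF-specific regions (up to 7.71%, against 4.45%) and in 3 of 19 ESC-specific ones (15.8%, 5.52% to 37.6%, against 7.72%). CCNTTGT was in 45 of 97 regions (46.4%, 36.8% to 56.3%, against 37.1%). The ESRRB sequence TCAAGGTCA was in none of the 97 (up to 3.81%, against 2.44%). The series share lay within every interval given here except those of KLF in ESC-specific and AP-1 in MEF-specific regions. Region length and base composition bear on such shares: ESC-specific regions here had a median width of 691 bp and 49.8% G and C, against 547 bp and 46.9% in the series, and their part in the result was not tested.

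The other genes of the pathway, 26 listed by role, had 165, 110, 132 and 153 different peaks within 50 kb, of which 8, 8, 8 and 9 were also at the 7 loci, since Osm lies beside Lif and Stat5a and Stat5b beside Stat3. Without those, the day 5 number was 65.0% of the MEF number, close to the 64.1% of the whole lists, where the 7 loci had 44.3%. The difference between the 2 sets of genes was not tested. Fewer peaks at day 5 than in MEFs were listed at 22 of the 26 genes (63.2% of all genes), more at 1 and the same number at 3. More peaks in MEFs than in ESCs were listed at 16 (42.2% of all genes), more in ESCs at 7 (35.6%) and the same at 3. A start-site peak was present at 22, 18, 22 and 20 of the 26, beside 60.0%, 52.1%, 56.0% and 55.8% of all genes. Counted gene by gene, with a peak near 2 genes counted at each, the 6 ligands of the family had 40, 25, 27 and 32 peaks, the 4 receptors 40, 21, 24 and 26, the 4 kinases or adaptors 35, 20, 26 and 27, the 3 STAT factors 16, 12, 14 and 12, and the 3 inhibitors 15, 13, 13 and 12. The 6 downstream genes stood apart, with 31, 27, 36 and 52 peaks. More peaks were listed in ESCs at 4 of the 6 (35.6% of all genes) and in MEFs at 0 (42.2% of all genes).

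The 6 genes with the largest differences between MEFs and ESCs illustrate this. Klf5, a pluripotency factor downstream of STAT3, had 1 peak in MEFs, at day 5 and at day 10 and 9 in ESCs. Tfcp2l1, another such factor and also in the marker list above, had 2, 6, 6 and 9. Osmr, which encodes the oncostatin M receptor, had 9, 3, 3 and 1. Cntfr, which encodes a receptor chain for ciliary neurotrophic factor, had 12, 6, 7 and 7, the cytokine gene Clcf1 11, 7, 10 and 7, and the kinase gene Tyk2 11, 6, 7 and 7. Cntfr had no start-site peak in any list, and its window overlapped that of the neighbouring receptor gene Il11ra1. Of the 6, only the 2 downstream genes had more peaks in ESCs.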

How the data were processed

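ATAC-seq libraries (8, in 4 groups of 2) were grouped by their titles. According to the labels and methods, the authors mapped reads to mm10 with bowtie2 (Bowtie2 2.2.0 in the submitters' processing notes, another version in the methods), removed reads of low mapping quality, with thresholds that differ between labels and methods, and dropped mitochondrial reads. The peak caller, its settings and any transposase shift of read ends are not given in the sources used here; a shift would move borders by a few bp. The authors deposited 1 broad-peak list per group, named as the intersection of the replicates, in which each peak has a score, a fold enrichment ratio, a −log10 p-value (not used here) and a −log10 q-value. The deposited score equals 10 times the −log10 q without its decimals. Peak names are those of replicate 1, so score and fold enrichment may describe the whole replicate 1 peak. In the MEF, day 5, day 10 and ESC lists, 810, 160, 170 and 315 intervals shared a peak name with another interval. Each interval was counted as a peak. No reads are given, so depth is unknown.

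Genes and start sites came from GENCODE release M21 unless RefSeq is named, and sequence from RefSeq GRCm38.p6, whose 21 chromosomes held every peak. Peaks within 400 bp were merged into regions. Motifs were searched on both strands in whole regions. No test was run, because each group has 1 list; shares have 95% Wilson intervals. Counting, classing and motif search were tested on simulated data. All 7 genes were named, with the regions over their start sites and the widest region of each class per gene, and 6 other pathway genes by the size of their difference; other regions were named after their values were seen. The genes, lists and motifs were chosen with earlier results of these data known. Python 3.11.15 with numpy 2.4.6, scipy 1.17.1 and matplotlib 3.10.9 was used. Alternatives were a q of 0.01, lists of equal length, 10 kb or 100 kb flanks, merging at 0 bp, peaks covering 50% of a region and start sites within 1 kb.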

Additional observations from a re-analysis of the deposited data

How the results depend on the processing

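The width of the locus changed the totals most. With 10 kb to each side in place of 50 kb there were 30, 16, 19 and 22 peaks in the order used above, 18 MEF-specific, 11 ESC-specific, 11 common and 5 transient regions, and 3 genes with more peaks in MEFs than in ESCs. With 100 kb there were 70 MEF-specific and 17 transient regions. These follow from the smaller or larger windows. ESC-specific regions numbered 12, in place of 19, when peaks needed a q-value of 0.01 or lower, and 12 when lists were cut to equal length by score. Of 56 values for counts over the 7 genes, 43 stayed within 1.5 times the value given, and none reversed. The difference in peaks between ESCs and MEFs reversed at Lif with 100 kb (-2), at Lifr with equal lists (3), and at Il6st (1) and Socs3 (1) with 10 kb. Of 140 values for single genes, 85 were unchanged by this measure, 51 moved and 4 reversed. No paired analysis was possible because both libraries of a group are deposited as 1 list, and for the same reason no library could be left out. Depth is unknown and the lists are named as intersections of 2 libraries, in which a peak called in 1 library may be missing, so a peak absent from a list is not shown to be absent from the cells.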
